A study of Homo sapiens with 10 samples.

Results

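The expression of 7 transcription factor genes that shape androgen receptor action and prostate cell identity was examined, namely FOXA1, HOXB13, GATA2, GATA3, GRHL2, NR3C1 and FOXP1. They were taken by symbol from the 59386 genes listed in the count tables, and all 7 were listed and passed the filter on low counts. The material was RNA from VCaP cells, an epithelial human prostate cancer cell line. SMARCA4, the ATPase of SWI/SNF chromatin remodelers, was targeted with siRNA A or siRNA B, and SMARCA1, an ISWI-type remodeling ATPase, with siRNA A or siRNA C, at 30 pmol for each targeting siRNA. RNA was collected 72 h after transfection. Each siRNA and the control had 2 libraries, giving 4 SMARCA4 knockdown, 4 SMARCA1 knockdown and 2 control libraries. The labels call the control group only a control, its count columns carry the tag siNC, and its siRNA and dose are not given in the sources used here. The siRNA treatment itself and the loss of its target therefore cannot be told apart in a comparison with control. The labels do not say that replicates came from separate cultures, so the p-values measure only the spread between these libraries.

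FOXA1 is a forkhead pioneer factor that opens chromatin for the androgen receptor in luminal prostate cells. HOXB13 and GATA2 bind many of the same enhancers, and GRHL2 keeps epithelial genes active. GATA3 is a luminal factor of breast and urothelium and is present in normal prostate epithelium. NR3C1 encodes the glucocorticoid receptor, which can occupy part of the androgen receptor's sites when it is raised in prostate cancer. FOXP1 is a forkhead repressor and an androgen-regulated gene in prostate cells.

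The libraries held between 23898545 and 34667965 counts. The 3 counts that a count of 0 allows as an upper limit equalled 0.0865 to 0.126 CPM and cover counting error only. CPM divides each count by its library's total. This total was the plain sum for that limit and for the cell type markers. For all other genes it was the sum over the genes tested, scaled by TMM factors. SMARCA4 fell to between 13.3 and 25.2 CPM with its own siRNAs, against 242.2 and 267.6 CPM in the controls. SMARCA1 fell to between 1.75 and 3.40 CPM with its own siRNAs, against 32.3 and 31.5 CPM. In SMARCA4 knockdown SMARCA1 lay between 57.4 and 83.8 CPM, above both controls. In SMARCA1 knockdown SMARCA4 lay between 228.3 and 249.7 CPM. The luminal markers KRT8, KRT18, EPCAM, CDH1, KLK2 and KLK3 were detected in every library, and KRT5, TP63, PTPRC, CD3E and CDH5 never exceeded 3 counts. Of the 3 basal markers, KRT14 alone passed the filter, and it lay between 37.7 and 106.8 CPM in the knockdown libraries against 3.05 and 3.65 CPM in the controls. The neuroendocrine markers CHGA and SYP ranged from 13.2 to 44.7 and from 42.7 to 74.3 CPM over the 10 libraries, and the 4 fibroblast markers summed to between 5.19 and 11.8 CPM in the controls and between 7.47 and 18.2 CPM in the knockdown libraries. A further feature moved with both knockdowns: 12 of 12 interferon-induced genes rose in each, and their summed level was 232.3 and 234.5 CPM in the controls, between 13302 and 33783 CPM in SMARCA4 knockdown and between 18805 and 34886 CPM in SMARCA1 knockdown. The part of the interferon-induced genes and of these markers in the results on the 7 factors was not tested.

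In control cells the factors spanned the range from very abundant to barely detected. With CPM divided by exon length in kilobases (RPKM), the mean level was 238.7 for FOXA1, 158.5 for HOXB13, 139.4 for GATA2, 60.4 for GRHL2, 3.13 for FOXP1, 0.765 for NR3C1 and 0.151 for GATA3. The values of neighbours in this order did not overlap between the 2 control libraries. FOXA1 was the 108th most abundant of 16899 genes tested on this scale, HOXB13 the 176th, GATA2 the 206th and GRHL2 the 601st, whereas NR3C1 was the 11870th and GATA3 the 14979th. The merged exons of FOXP1 add up to 34819 bases, more than any single transcript, so its level per length is understated. In both knockdowns the values of HOXB13 and GATA2 overlapped, at 128.8 to 154.3 and 125.3 to 166.8 RPKM after SMARCA4 siRNAs and at 100.6 to 153.0 and 105.1 to 119.9 RPKM after SMARCA1 siRNAs. The rest of the order was kept.

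**Figure D1:**
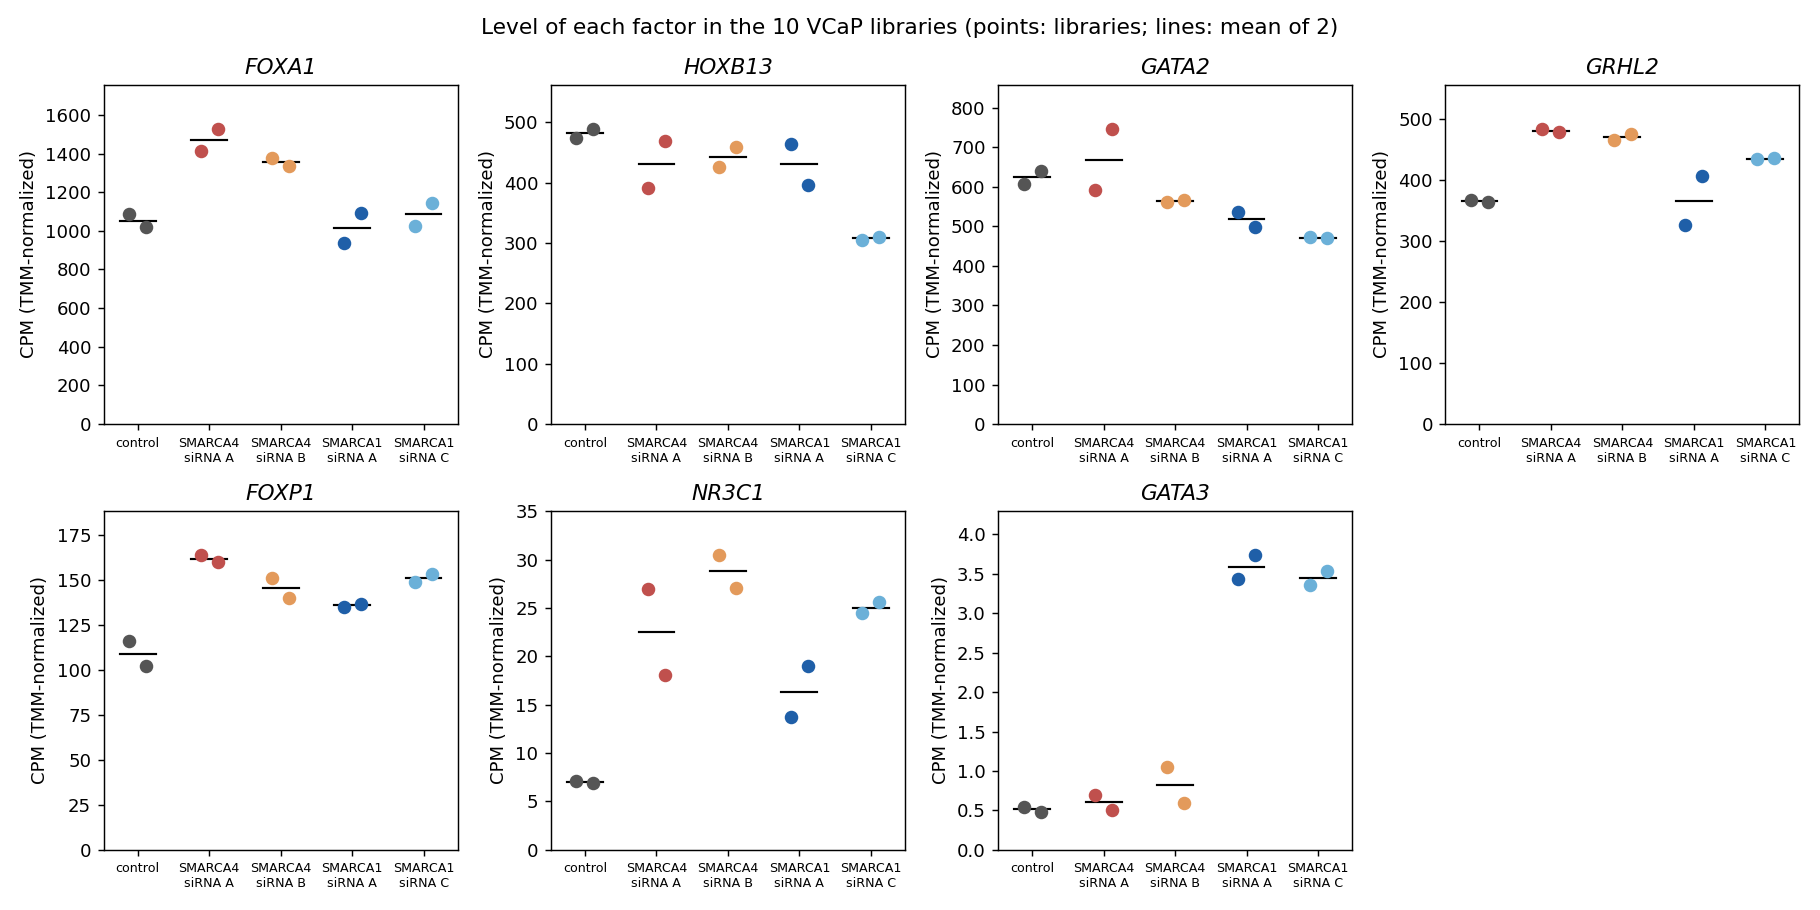
Level of each factor in CPM (TMM-normalized, linear axis from 0) in each of the 10 libraries, with points for libraries and lines for the mean of 2. FOXA1 and GRHL2 stand above both controls in the 4 SMARCA4 knockdown libraries, GATA3 stands apart in the 4 SMARCA1 knockdown libraries, and NR3C1 lies between 13.7 and 30.5 CPM in all 8 knockdown libraries against 7.11 and 6.91 CPM in the controls.

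SMARCA4 knockdown raised 4 of the 7 factors (FOXA1, GRHL2, NR3C1 and FOXP1) and lowered 0 at an adjusted p below 0.05. Among all genes tested, 22.8% were called higher and 22.3% lower in this comparison. SMARCA1 knockdown raised 3 factors (GATA3, NR3C1 and FOXP1) and lowered 2 (HOXB13 and GATA2), with 23.8% of all genes called higher and 23.0% lower. Set directly against SMARCA1 knockdown, SMARCA4 knockdown had higher FOXA1, HOXB13, GATA2 and GRHL2 and lower GATA3, 4 and 1 of the 7, where 16.3% and 19.1% of all genes were called higher and lower. Of these calls, HOXB13 and GRHL2 were each lost in 10 of 20 alternative fits. The median log2 fold change of the 7 factors was 0.42 in SMARCA4 knockdown, 0.13 in SMARCA1 knockdown and 0.26 between the knockdowns, beside 0.00, 0.00 and -0.01 for all genes tested. SMARCA1 itself was above control in SMARCA4 knockdown, and its part in the difference between the knockdowns was not tested. Both comparisons with control used the same 2 control libraries. In RNA from whole cultures, fewer cells of a type and less RNA per cell cannot be told apart.

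**Figure D2:**
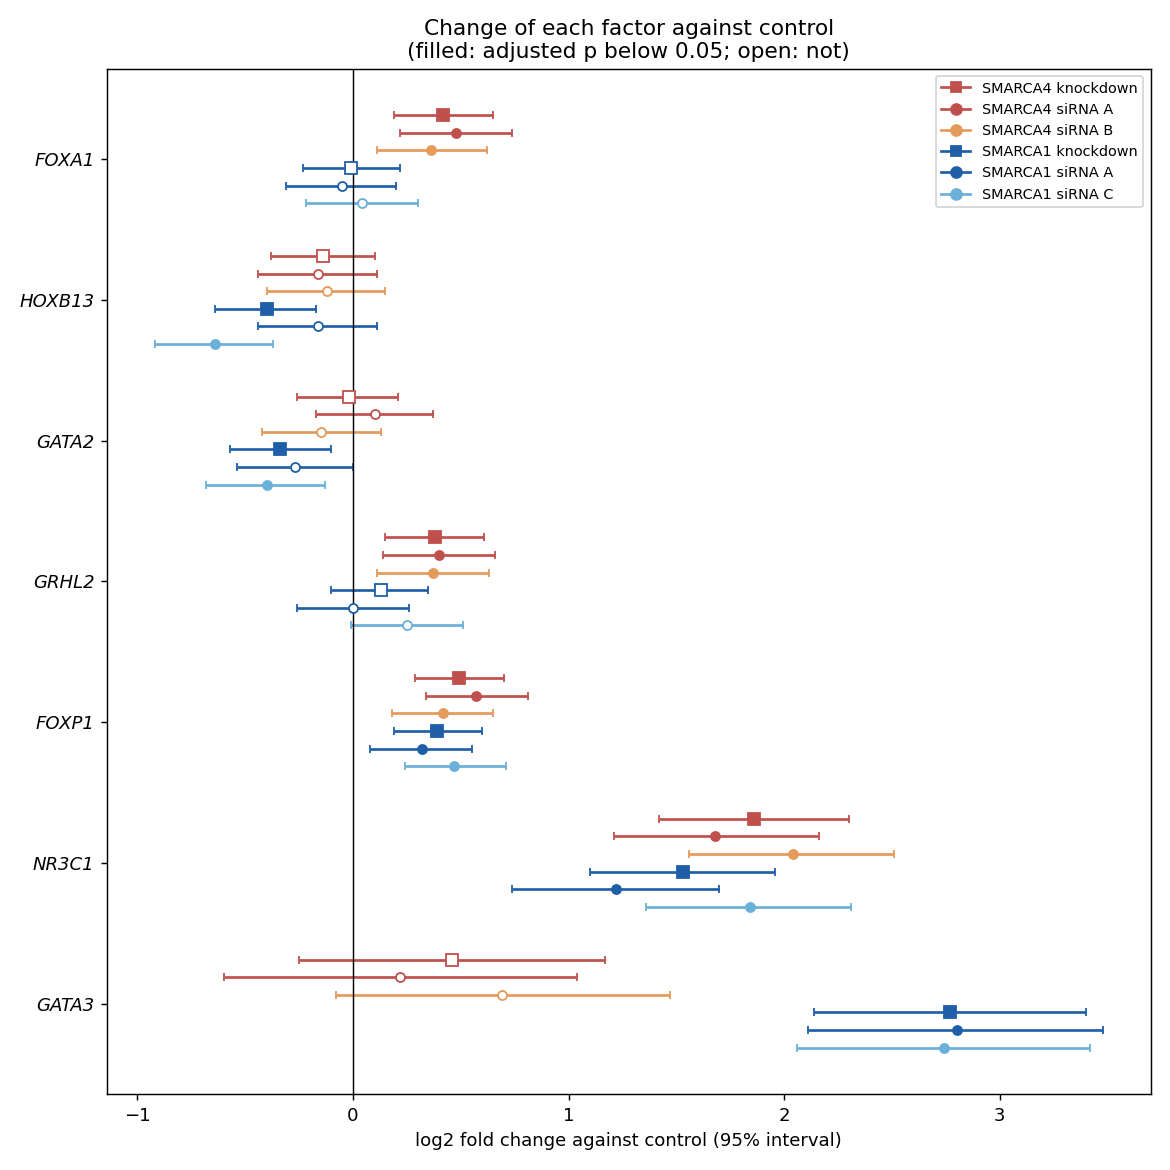
Log2 fold change against control with its 95% interval, for each knockdown (squares) and each siRNA (circles). Filled symbols have an adjusted p below 0.05. The intervals of NR3C1 and FOXP1 lie above 0 with all 4 siRNAs, those of FOXA1 and GRHL2 only with the SMARCA4 siRNAs, and those of GATA3 only with the SMARCA1 siRNAs.

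FOXA1, the pioneer factor, was the most abundant of the 7 and rose only modestly. Its level was 1086 and 1020.4 CPM in the controls, 1411 and 1526 CPM with SMARCA4 siRNA A, 1376 and 1337 CPM with SMARCA4 siRNA B, 937.0 and 1093 CPM with SMARCA1 siRNA A and 1025 and 1146 CPM with SMARCA1 siRNA C. All 4 SMARCA4 knockdown libraries were above both controls and above all 4 SMARCA1 knockdown libraries, and the SMARCA1 knockdown libraries overlapped the controls. FOXA1 was 1.34-fold higher in SMARCA4 knockdown than in control (log2 fold change 0.42, SE 0.10, adjusted p = 0.0075). Without control library 2 the log2 fold change was 0.41 and the adjusted p 0.064. Against control, SMARCA1 knockdown gave -0.01 with a 95% interval from -0.23 to 0.22. The difference between the knockdowns was 0.43 (SE 0.08, adjusted p = 0.0035), and it was called in 20 of 20 alternative fits.

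FOXA1 lies on chromosome 14 at 37589552 to 37596059 (GRCh38, minus strand). Within 100 kb of it, 4 genes were tested. MIPOL1 fell in both knockdowns (log2 fold changes -0.52 and -0.71 for SMARCA4 and SMARCA1, adjusted p = 0.012 and 0.0026). TTC6, which overlaps FOXA1 on the opposite strand and shares 16 exonic bases with it, fell in SMARCA1 knockdown (-0.62, adjusted p = 0.0067) and was at -0.15 in SMARCA4 knockdown (adjusted p = 0.45). RP11-356O9.1 fell in SMARCA4 knockdown (-0.92, adjusted p = 0.0014) and was at 0.02 in SMARCA1 knockdown (adjusted p = 0.92), and RP11-356O9.2 was called in neither. None of these 4 genes rose with FOXA1 in SMARCA4 knockdown.

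HOXB13, the homeobox factor of the posterior prostate lineage, was lower in SMARCA1 knockdown, and the siRNAs differed in size. The controls had 474.5 and 488.7 CPM. SMARCA4 siRNA A gave 391.4 and 468.9 CPM and SMARCA4 siRNA B 426.6 and 459.4 CPM. SMARCA1 siRNA A gave 464.9 and 396.0 CPM and SMARCA1 siRNA C 305.8 and 310.8 CPM. All 8 knockdown libraries lay below both controls, and the 2 libraries of SMARCA1 siRNA C were the lowest. HOXB13 was 0.756 times the control level in SMARCA1 knockdown (log2 fold change -0.40, SE 0.11, adjusted p = 0.011). Taken alone, siRNA C gave -0.64 (SE 0.12, adjusted p = 0.0024) and siRNA A -0.16 (SE 0.12, adjusted p = 0.33). Between these siRNAs the difference was 0.48 (unadjusted p = 0.003, adjusted p = 0.14). SMARCA4 knockdown stood at -0.14 with a 95% interval from -0.38 to 0.10. The difference between the knockdowns was 0.26 (SE 0.09, adjusted p = 0.041), was called in 10 of 20 alternative fits and was 0.02 with SMARCA1 siRNA A alone. It was lost without SMARCA1 siRNA A library 2 (0.21, adjusted p = 0.051), either library of SMARCA1 siRNA C (0.26 and 0.27, 0.13 and 0.11), SMARCA4 siRNA A library 2 (0.20, 0.12) or either library of SMARCA4 siRNA B (0.31 and 0.24, 0.052 and 0.13). Leaving out control library 1 or 2 took the adjusted p in SMARCA1 knockdown to 0.083 (-0.40) or 0.1 (-0.36).

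HOXB13 is the outermost gene of the HOXB cluster, on chromosome 17 at 48724763 to 48728750 (minus strand), and its neighbours moved in opposite directions. PRAC1 and PRAC2, small prostate- and distal colon-expressed genes that lie 2245 and 5 bases from it, fell in both knockdowns. PRAC1 had 36.3 and 34.9 CPM in the controls and between 13.2 and 25.3 CPM in the 8 knockdown libraries (log2 fold changes -0.99 and -0.96 for SMARCA4 and SMARCA1, adjusted p = 1.8e-04 and 2.7e-04). PRAC2 changed by -1.09 and -0.66 (adjusted p = 0.0013 and 0.017). Among the other HOXB genes, which pattern the body axis, HOXB3, HOXB6 and HOXB7 had at most 26 counts in a control library and rose in both knockdowns. HOXB7 had 0.920 and 0.966 CPM in the controls, between 1.60 and 2.32 CPM in SMARCA4 knockdown and between 2.40 and 4.23 CPM in SMARCA1 knockdown (1.02 and 1.93, adjusted p = 0.018 and 5.8e-04). HOXB6 changed by 1.94 and 3.38 (adjusted p = 0.036 and 0.0018), and HOXB9 by 0.87 and 1.86 (adjusted p = 0.18 and 0.0087), so that HOXB9 was called in SMARCA1 knockdown alone.

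HOXB3 had 3 counts in each control library, 32, 7, 44 and 19 counts in SMARCA4 knockdown and 46, 32, 110 and 126 counts in SMARCA1 knockdown, and it was called higher in both. Of the 11 listed genes of the cluster 6 were tested, with 3 higher and 2 lower in SMARCA4 knockdown and 4 higher and 2 lower in SMARCA1 knockdown. Among all genes tested 22.8% were higher and 22.3% lower in the first and 23.8% and 23.0% in the second. Between the knockdowns 16.3% of all genes were called higher and 19.1% lower. HOXB3, HOXB6, HOXB7 and HOXB9 were all lower in SMARCA4 than in SMARCA1 knockdown (log2 differences -1.50, -1.45, -0.91 and -0.99, adjusted p between 0.0068 and 0.038). The other HOXB genes, HOXB1, HOXB2, HOXB4, HOXB5 and HOXB8, had at most 7 counts in any library and were not tested. On the far side of HOXB13, TTLL6 rose in both knockdowns (1.44 and 2.48, adjusted p = 0.011 and 6.7e-04). Toward the cluster, RP11-357H14.17 had 0 and 1 counts in the controls and between 13 and 109 counts in the knockdown libraries. MIR3185 and CTD-2377D24.4 were called in neither knockdown.

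**Figure D3:**
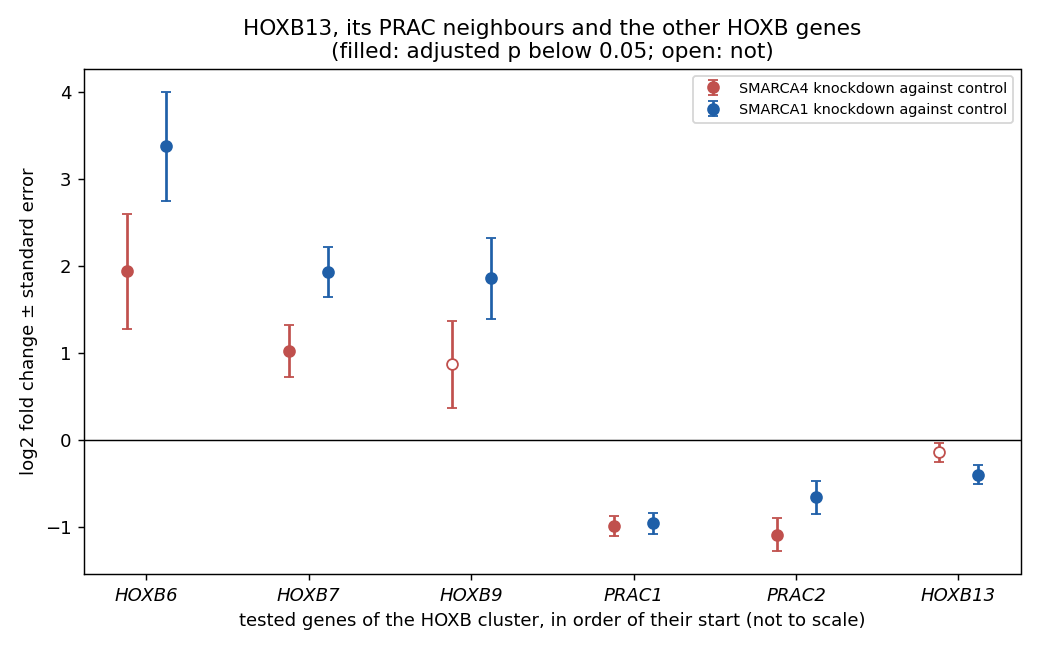
Log2 fold change against control ± SE (TMM-normalized edgeR fit, 10 libraries) of HOXB13 and 5 other tested genes of its cluster, in order of their start on the chromosome and not to scale, with filled points at an adjusted p below 0.05. HOXB6 to HOXB9 lie above 0, and PRAC1 and PRAC2 lie between -0.66 and -1.09, with HOXB13 at -0.14 and -0.40.

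GATA2, a zinc finger factor that binds with the androgen receptor at enhancers, was lower in SMARCA1 knockdown, though single libraries decided the call. It had 608.0 and 640.0 CPM in the controls, 591.3 and 746.3 CPM with SMARCA4 siRNA A, 560.7 and 567.2 CPM with SMARCA4 siRNA B, 536.7 and 499.2 CPM with SMARCA1 siRNA A and 473.7 and 470.4 CPM with SMARCA1 siRNA C. The 4 SMARCA1 knockdown libraries lay below all 6 others, while the SMARCA4 knockdown libraries fell on both sides of the controls. In SMARCA1 knockdown the level was 0.792 times that of control (log2 fold change -0.34, SE 0.10, adjusted p = 0.024). This call was lost in 4 of 6 fits that left out 1 library, without control library 1 (-0.35, adjusted p = 0.12), control library 2 (-0.28, 0.18), SMARCA1 siRNA C library 1 (-0.33, 0.074) or SMARCA1 siRNA C library 2 (-0.33, 0.069). SMARCA4 knockdown gave -0.02 with a 95% interval from -0.26 to 0.21. The difference between the knockdowns was 0.31 (SE 0.09, adjusted p = 0.019). It was lost without SMARCA1 siRNA C library 1 (0.32, adjusted p = 0.07), SMARCA1 siRNA C library 2 (0.32, 0.068) or SMARCA4 siRNA B library 2 (0.31, 0.058). GATA2-AS1, which overlaps GATA2 on the opposite strand of chromosome 3 without sharing exonic bases, was at 0.10 and -0.10 (both adjusted p = 0.47). EEFSEC, 70781 bases away, fell in SMARCA1 knockdown (-0.39, adjusted p = 0.021) and was at -0.22 in SMARCA4 knockdown (adjusted p = 0.16).

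GATA3 showed the largest change of the 7 and the lowest level. It had 13 counts in each control library (0.544 and 0.483 CPM), 20 and 16 counts with SMARCA4 siRNA A (0.698 and 0.503 CPM) and 34 and 17 with SMARCA4 siRNA B (1.05 and 0.596 CPM). With SMARCA1 siRNA A it had 95 and 92 counts (3.44 and 3.74 CPM) and with SMARCA1 siRNA C 105 and 118 (3.36 and 3.54 CPM). The 4 SMARCA1 knockdown libraries stood apart from all 6 others, whereas the SMARCA4 knockdown libraries overlapped the controls. GATA3 was 6.82-fold higher in SMARCA1 knockdown than in control (log2 fold change 2.77, SE 0.28, adjusted p = 8.7e-05), and siRNA A and siRNA C gave 2.80 and 2.74. SMARCA4 knockdown gave 0.46 (adjusted p = 0.27, 95% interval -0.25 to 1.17). Between the knockdowns, the SMARCA4 level was 0.201 times the SMARCA1 level (log2 fold change -2.31, SE 0.20, adjusted p = 7.7e-05). Even at its highest the level was 1.10 RPKM, far below the 105.1 RPKM that was the lowest level of its relative GATA2. A filter of at least 5 CPM in 2 or more libraries removed GATA3. TAF3, 28747 bases away, rose in SMARCA1 knockdown by 0.33 (adjusted p = 0.035) and was at 0.08 in SMARCA4 knockdown (adjusted p = 0.61).

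RefSeq (GRCh38.p14) lists 22 promoter windows of 300 bases, each from 250 bases before to 50 after a start, for FOXA1, GATA2, GATA3, NR3C1 and FOXP1. Counts per gene do not say which start was used. They were searched on both strands for a forkhead site (TGTTTAC, in 3.42% of all 34943 promoters listed), a GATA site (AGATAA, 10.4%), a steroid receptor hexamer (TGTTCT, 14.8%), an interferon element (GAAANNGAA, 8.10%) and an E-box (CACGTG, 7.23%). No match overlapped another, and 4 windows held at least 1 match. These 4 windows belong to GATA3, NR3C1 and FOXP1, which also had most of the windows searched. They are shown because they hold a match, 5′ to 3′ on the gene's strand, with the matches in capitals.
GATA3, chr10:8050986-8051285, plus strand, E-box at position -64: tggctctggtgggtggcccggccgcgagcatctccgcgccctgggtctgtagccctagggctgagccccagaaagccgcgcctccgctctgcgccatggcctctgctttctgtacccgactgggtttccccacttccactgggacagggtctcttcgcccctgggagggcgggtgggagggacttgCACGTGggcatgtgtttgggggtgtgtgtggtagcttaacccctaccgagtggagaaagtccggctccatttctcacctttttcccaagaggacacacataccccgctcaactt
NR3C1, chr5:143403234-143403533, minus strand, forkhead site at -59 and GATA site at 15: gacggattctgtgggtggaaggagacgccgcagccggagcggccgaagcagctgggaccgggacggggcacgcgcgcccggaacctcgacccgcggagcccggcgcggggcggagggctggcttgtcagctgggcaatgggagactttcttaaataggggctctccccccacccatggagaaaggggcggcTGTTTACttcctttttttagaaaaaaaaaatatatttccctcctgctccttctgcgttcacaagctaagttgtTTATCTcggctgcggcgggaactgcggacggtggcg
FOXP1, chr3:71245028-71245327, minus strand, interferon element at -218 and forkhead site at -193: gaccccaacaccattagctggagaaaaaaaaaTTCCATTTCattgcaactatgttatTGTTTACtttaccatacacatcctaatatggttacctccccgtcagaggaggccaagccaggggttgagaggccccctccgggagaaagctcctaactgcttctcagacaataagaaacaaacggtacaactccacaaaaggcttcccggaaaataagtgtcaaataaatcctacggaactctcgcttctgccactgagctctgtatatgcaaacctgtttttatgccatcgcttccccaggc
FOXP1, chr3:71132148-71132447, minus strand, steroid receptor hexamer at -139: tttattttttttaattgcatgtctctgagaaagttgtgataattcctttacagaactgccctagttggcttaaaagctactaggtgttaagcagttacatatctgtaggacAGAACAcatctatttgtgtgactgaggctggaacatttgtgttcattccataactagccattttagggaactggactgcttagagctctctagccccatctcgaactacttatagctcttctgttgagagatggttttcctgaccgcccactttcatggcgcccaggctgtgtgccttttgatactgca
The windows of FOXA1, which also rose in SMARCA4 knockdown, and of GATA2 held none of these letters. A match describes the letters alone and is no evidence of binding.

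NR3C1, the glucocorticoid receptor gene, rose with every siRNA and was the only factor to rise several-fold in both knockdowns. It had 7.11 and 6.91 CPM in the controls. SMARCA4 siRNA A gave 27.0 and 18.1 CPM and SMARCA4 siRNA B 30.5 and 27.1 CPM. SMARCA1 siRNA A gave 13.7 and 19.0 CPM and SMARCA1 siRNA C 24.5 and 25.6 CPM. All 8 knockdown libraries were above both controls, and the lowest were those of SMARCA1 siRNA A and the second library of SMARCA4 siRNA A. NR3C1 was 3.63-fold higher in SMARCA4 knockdown (log2 fold change 1.86, SE 0.20, adjusted p = 6.9e-05) and 2.88-fold higher in SMARCA1 knockdown (1.53, SE 0.19, adjusted p = 2.5e-04). The 4 siRNAs taken singly gave between 1.22 and 2.04, each called. The call held in 16 of 16 alternative fits in each knockdown. The difference between the knockdowns was 0.33 (adjusted p = 0.092, 95% interval 0.02 to 0.65), and it was called without SMARCA1 siRNA A library 2 (0.47, adjusted p = 0.015) or without SMARCA4 siRNA A library 2 (0.47, adjusted p = 0.021).

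NR3C1 and the summed level of the 12 interferon-induced genes were lowest in the same 3 knockdown libraries, in a different order. The sum was 13302, 18805 and 20505 CPM in SMARCA4 siRNA A library 2, SMARCA1 siRNA A library 2 and SMARCA1 siRNA A library 1. NR3C1 had 18.1, 19.0 and 13.7 CPM there. In the other 5 knockdown libraries the sum was between 25825 and 34886 CPM. It was highest with SMARCA1 siRNA C, at 34531 and 34886 CPM, where NR3C1 was lowest among these libraries, at 24.5 and 25.6 CPM. The part of the interferon-induced genes in the rise of NR3C1 was not tested.

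The gene next to NR3C1 rose with it. ARHGAP26, 48920 bases away on the opposite strand of chromosome 5, had 13.8 and 14.6 CPM in the controls, between 35.4 and 52.3 CPM in SMARCA4 knockdown and between 27.6 and 46.5 CPM in SMARCA1 knockdown. The controls stood below all 8 knockdown libraries, the 2 knockdowns overlapped, and the log2 fold changes against control were 1.61 (SE 0.14, adjusted p = 2.2e-05) and 1.39 (SE 0.14, adjusted p = 7.2e-05). It was the 1 tested gene of the 7 listed within 100 kb of NR3C1.

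Genes known as targets of the glucocorticoid receptor mostly rose. Of 13 listed, all tested, 9 were higher and 1 lower in SMARCA4 knockdown and 10 higher and 1 lower in SMARCA1 knockdown, with medians of 1.00 and 0.90 on the log2 scale, beside 22.8% higher and 22.3% lower, and 23.8% and 23.0%, of all genes. CEBPD, a C/EBP transcription factor gene, rose by 1.58 and 1.51, and MT2A, a metallothionein gene, by 1.47 and 1.72. NFKBIA, which encodes the NF-kappaB inhibitor and is also induced by NF-kappaB itself, rose by 1.37 and 1.47. SGK1, a kinase gene, rose by 1.11 and 0.90, and ERRFI1, an inhibitor of EGF receptor signaling, by 1.07 and 1.13. The adjusted p of each of these values was at most 0.0089. KLF15 fell by 0.48 and 0.45 (adjusted p = 0.0038 and 0.0052). Several of these genes also answer to androgen, inflammation or stress, so the list is not specific to this receptor.

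Of 8 chaperones that fold the glucocorticoid receptor, all tested, 1 was higher and 4 lower in SMARCA4 knockdown, where 22.8% and 22.3% of all genes were. In SMARCA1 knockdown 2 were higher and 2 lower, near the shares of 23.8% and 23.0% among all genes. PTGES3, the p23 cochaperone, fell by 0.82 in SMARCA4 knockdown (adjusted p = 1.9e-04), FKBP4 by 0.81 (adjusted p = 1.7e-04) and HSP90AA1 by 0.62 (adjusted p = 0.0023). In SMARCA1 knockdown FKBP4 fell by 0.48 (adjusted p = 0.0038), and PTGES3 and HSP90AA1 were at -0.15 and 0.11 (adjusted p = 0.26 and 0.49). HSPA8 changed by -0.44 and -0.26 in the knockdowns (adjusted p = 0.002 and 0.028). HSP90AB1 rose by 0.32 in SMARCA1 knockdown (adjusted p = 0.022) and was at -0.15 in SMARCA4 knockdown (adjusted p = 0.24). FKBP5, which holds the receptor in a less active state and is itself a receptor target counted in both lists, rose by 1.00 and 1.03 (adjusted p = 0.0025 and 0.0022). Between the knockdowns 0 of the 8 were higher and 6 lower with the SMARCA4 siRNAs, beside 16.3% and 19.1% of all genes.

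FOXP1, the forkhead repressor, rose in both knockdowns by less than NR3C1. Its level was 115.9 and 102.1 CPM in the controls, 164.0 and 159.8 CPM with SMARCA4 siRNA A, 151.4 and 140.0 CPM with SMARCA4 siRNA B, 135.3 and 136.5 CPM with SMARCA1 siRNA A and 148.8 and 153.5 CPM with SMARCA1 siRNA C. Every knockdown library was above both controls. FOXP1 was 1.41-fold higher in SMARCA4 knockdown (log2 fold change 0.49, SE 0.09, adjusted p = 0.0019) and 1.31-fold higher in SMARCA1 knockdown (0.39, SE 0.09, adjusted p = 0.0062). Without control library 2 the SMARCA1 value was 0.32 with an adjusted p of 0.072. The difference between the knockdowns was 0.10, with a 95% interval from -0.06 to 0.26. EIF4E3, 91425 bases away on chromosome 3, also rose in both (0.52 and 0.57, adjusted p = 0.018 and 0.012).

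GRHL2, the grainyhead factor of epithelial cells, rose in SMARCA4 knockdown with little spread between libraries. The controls had 367.7 and 364.0 CPM, SMARCA4 siRNA A 484.0 and 478.9 CPM and SMARCA4 siRNA B 466.4 and 476.4 CPM. With SMARCA1 siRNA A it had 326.5 and 407.2 CPM and with SMARCA1 siRNA C 434.6 and 436.4 CPM. The 4 SMARCA4 knockdown libraries were above all 6 others, and the SMARCA1 knockdown libraries lay on both sides of the controls. GRHL2 was 1.30-fold higher in SMARCA4 knockdown (log2 fold change 0.38, SE 0.10, adjusted p = 0.013). Without control library 1 or 2 the adjusted p was 0.062 (0.43) or 0.07 (0.40). SMARCA1 knockdown gave 0.13 with a 95% interval from -0.10 to 0.35. It was called there only without SMARCA1 siRNA A library 1 (0.20, adjusted p = 0.036). Between the knockdowns the difference was 0.25 (SE 0.08, adjusted p = 0.037), which was called in 10 of 20 alternative fits. It was lost without either library of SMARCA1 siRNA C (0.26 and 0.26, adjusted p = 0.11 for both), of SMARCA4 siRNA A (0.26 and 0.27, 0.056 and 0.06) or of SMARCA4 siRNA B (0.28 and 0.25, 0.057 and 0.097).

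Epithelial genes known to be bound by GRHL2 also rose in part. Of 14, all tested, 8 were higher and 0 lower in SMARCA4 knockdown, and 9 were higher and 2 lower in SMARCA1 knockdown, with medians of 0.54 and 0.60, beside 22.8% higher and 22.3% lower, and 23.8% and 23.0%, of all genes. The tight junction genes CLDN4 and CLDN3 rose by 1.35 and 0.96 in SMARCA4 knockdown (adjusted p = 0.0026 and 0.0015) and by 1.35 and 0.60 in SMARCA1 knockdown (adjusted p = 0.0027 and 0.016). OVOL1, an epithelial zinc finger factor, rose by 0.96 and 1.58, and ST14, the protease matriptase, by 0.89 and 1.12 (each adjusted p at most 6.5e-04). CLDN7 rose by 0.96 in SMARCA1 knockdown (adjusted p = 0.0059) and was at 0.52 in SMARCA4 knockdown (adjusted p = 0.077). The 2 that fell there, PROM2 (-0.66, adjusted p = 0.0012) and the splicing factor ESRP1 (-0.46, adjusted p = 0.0052), were outside the rule for named genes and are given because they are the only 2. In SMARCA1 knockdown GRHL2 itself was at 0.13 (95% interval -0.10 to 0.35). The part of GRHL2 in the changes of these genes was not tested. Beside GRHL2, NCALD at 16816 bases rose in SMARCA4 knockdown (0.76, adjusted p = 4.8e-04) and was at -0.03 in SMARCA1 knockdown. KB-1562D12.1 on the opposite strand, which shares 50 exonic bases with GRHL2, rose in SMARCA4 knockdown by 0.46 (adjusted p = 0.041) and was at 0.17 in SMARCA1 knockdown (adjusted p = 0.41).

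The siRNAs against 1 target were also set against each other. For SMARCA4, siRNA A against siRNA B called 0 of the 7 factors, with 0 at an unadjusted p below 0.05, where 6.20% of all genes were called. For SMARCA1, siRNA A against siRNA C called 0, with 2 at an unadjusted p below 0.05 (HOXB13, and NR3C1 with a log2 difference of -0.62, unadjusted p = 0.012), where 0.0118% of all genes were called. Against control, SMARCA4 siRNA A and siRNA B each called 4 of 7 (33.2% and 45.0% of all genes), SMARCA1 siRNA A 3 (34.8%) and SMARCA1 siRNA C 5 (45.3%). Both SMARCA4 siRNAs called FOXA1, GRHL2, NR3C1 and FOXP1, and both SMARCA1 siRNAs called GATA3, NR3C1 and FOXP1. HOXB13 and GATA2 were called with SMARCA1 siRNA C and not with siRNA A. The interval of their siRNA A against siRNA C difference was 0.21 to 0.76 for HOXB13 and -0.14 to 0.41 for GATA2.

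Of 18 relatives of the factors 11 were tested, with 4 higher and 1 lower in SMARCA4 knockdown and 4 higher and 2 lower in SMARCA1 knockdown. Among all genes tested the shares were 22.8% and 22.3%, and 23.8% and 23.0%, and counts over 11 genes are not far from them. GATA6, which specifies endoderm, rose from 39.5 and 41.4 CPM in the controls by 1.25 and 0.66 on the log2 scale (adjusted p = 2.8e-05 and 0.001). GRHL3, a grainyhead factor of surface epithelium, had 14 and 4 counts in the controls and rose by 1.72 and 2.59 (adjusted p = 0.022 and 0.0023). NR3C2, the mineralocorticoid receptor gene, rose by 0.73 and 0.88 (adjusted p = 0.025 and 0.011), and FOXP4 rose by 0.53 and 0.63 (adjusted p = 0.0027 and 0.0011). HOXA13, the paralog of HOXB13 on the HOXA cluster, fell by 0.92 in SMARCA1 knockdown (adjusted p = 0.0042) and was at 0.16 in SMARCA4 knockdown (adjusted p = 0.56). The difference between the knockdowns was 1.08 for HOXA13 (adjusted p = 0.0012).

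Among 22 other luminal and lineage transcription factors, 20 were tested. In SMARCA4 knockdown 7 were higher and 4 lower, and in SMARCA1 knockdown 6 were higher and 5 lower. These counts lie near the shares of all genes tested, 22.8% higher and 22.3% lower in SMARCA4 and 23.8% and 23.0% in SMARCA1 knockdown. KLF4, a differentiation factor of epithelia, rose by 2.41 and 2.35 (adjusted p = 5.4e-05 and 9.1e-05), and ELF3, an epithelial ETS factor, by 1.40 and 1.25 (adjusted p = 4.0e-04 and 8.3e-04). SOX9 rose by 0.92 and 0.77 (adjusted p = 5.7e-04 and 0.0016), XBP1, a factor of the secretory stress response, by 0.82 and 0.64 (adjusted p = 0.0015 and 0.0055), and KLF5 by 0.79 and 1.35 (adjusted p = 0.0021 and 1.5e-04). POU2F1, the octamer factor OCT1, changed by -0.50 and -0.81 (adjusted p = 0.037 and 0.0038).

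Of 17 coregulators that steroid receptors recruit, all tested, 5 were higher and 1 lower in SMARCA4 knockdown and 3 higher and 0 lower in SMARCA1 knockdown. Among all genes tested 22.8% were higher and 22.3% lower in the first and 23.8% and 23.0% in the second, so the shares higher were near the background. TRIM24, a coactivator, rose by 0.84 in SMARCA4 knockdown (adjusted p = 7.6e-04), NCOR1, a corepressor, by 0.63 (adjusted p = 0.0032), the methyltransferase gene KMT2D by 0.57 (adjusted p = 0.018) and the acetyltransferase gene CREBBP by 0.48 (adjusted p = 0.029). These 4 were at 0.31, 0.34, -0.02 and 0.29 in SMARCA1 knockdown, none called. In SMARCA1 knockdown PIAS1 rose by 0.55 (adjusted p = 0.011) and CARM1 by 0.50 (adjusted p = 0.005), and they were at 0.34 and 0.01 in SMARCA4 knockdown, neither called.

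**Figure D4:**
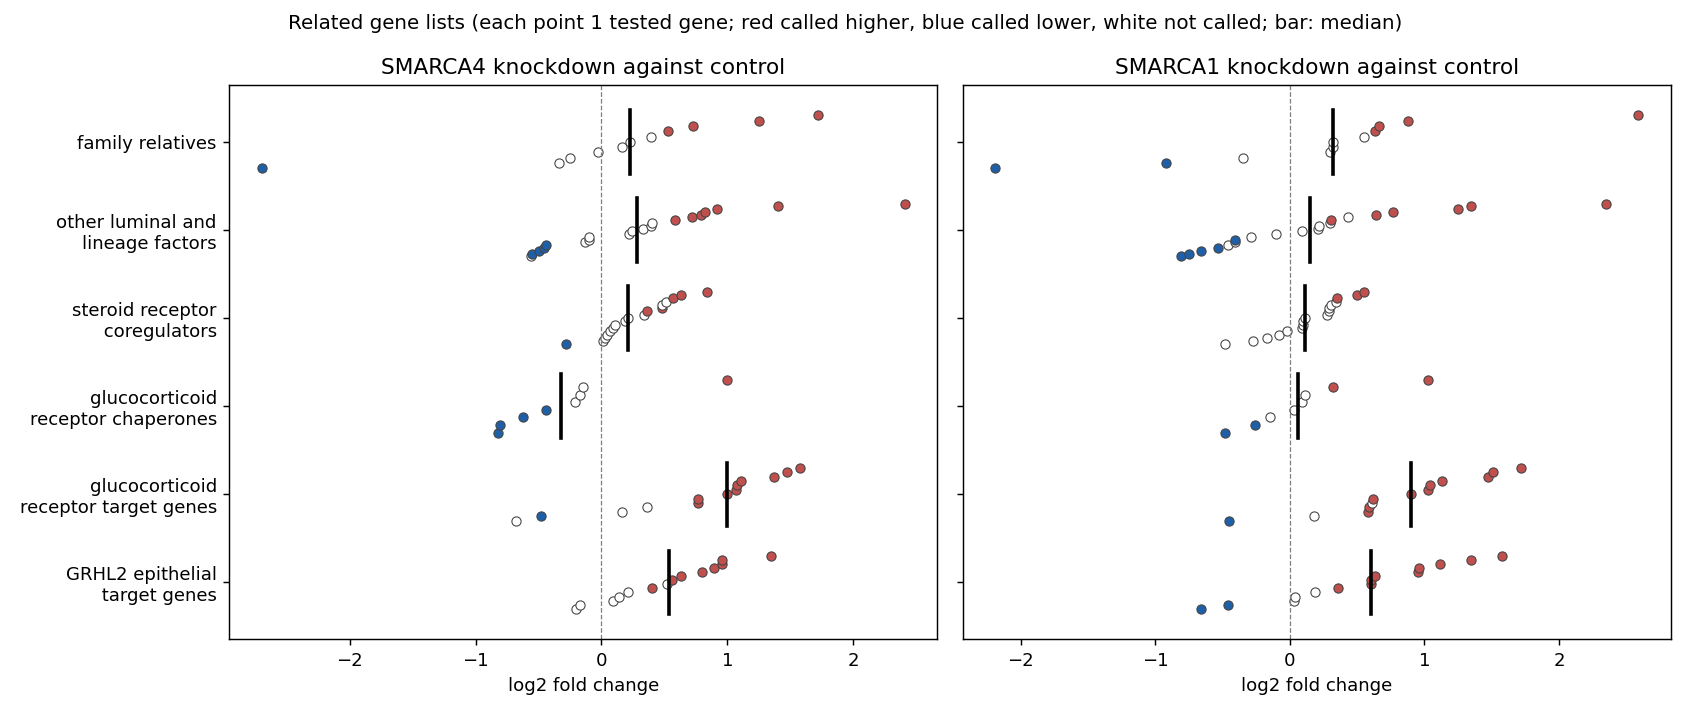
Log2 fold change against control of each tested gene in 6 related lists, with 1 point per gene (red called higher, blue called lower, white not called at an adjusted p of 0.05) and a bar at the list's median. The medians of the glucocorticoid receptor target genes lie at 1.00 and 0.90 and those of the chaperones at -0.33 and 0.06.

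For each factor, genes with the most similar profile were taken over the 10 libraries, by Pearson correlation of log2 CPM among 9481 genes at a mean of at least 10 CPM. The libraries fall into 5 conditions, so these values mainly order genes by their pattern over the conditions, and they are given as descriptions. NR3C1 was most similar to KDM2A, PTPRA and ZFYVE26 (each 1.00 after rounding), of which ZFYVE26 rose by 2.22 and 1.78 in the knockdowns. FOXP1 was most similar to TOX4 (0.98), SMAP1 (0.98) and TNFRSF11A (0.97), which all rose in both knockdowns. FOXA1 was closest to PHF12 (0.98), THBS1 (0.97) and LIMA1 (0.97), and GRHL2 to ZNF28 (0.99), SYNRG (0.98) and GPR137C (0.98), and these 6 rose in SMARCA4 knockdown and were not called in SMARCA1 knockdown. GATA3 was closest to MED30 (0.98), HS6ST1 (0.97) and LMAN2L (0.97), which rose in SMARCA1 knockdown by between 0.63 and 0.76. HOXB13 was closest to CRYL1 (0.97) and MGAT5B (0.97), and GATA2 to ACSS1 (0.97), MAPK13 (0.95) and PROM2 (0.95), which all fell in SMARCA1 knockdown.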

How the data were processed

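RNA-seq was available for 10 VCaP libraries, whose knockdown, siRNA and replicate were read from the sample labels. The authors sequenced strand-specific polyadenylated RNA as paired ends, aligned it to GRCh38 with HISAT2 2.1.0 and counted reads per gene with featureCounts 1.5.2, as the submitters' processing notes give the versions. The GENCODE release behind the annotation and the strand setting of the counting are not given in the sources used here. What the authors deposited are raw, unnormalized counts of 59386 genes. As a check of that setting, 809 genes contained entirely in exons of opposite-strand genes were examined, and 216 (26.7%) reached 10 counts summed over the libraries.

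Genes were filtered with filterByExpr (minimum count 10, minimum total 15), leaving 16899. TMM factors were applied, and edgeR 4.0.16 (R 4.3.3) tested the counts by quasi-likelihood in 1 fit of the 10 libraries and 5 groups, a knockdown being the average of its siRNA groups. P-values were adjusted by Benjamini-Hochberg over all genes tested, and an adjusted p below 0.05 was called. SE was derived from the log2 fold change and its F statistic. RPKM is CPM divided by the listed exon length, which was deposited with the counts. The fit was tested on simulated data. Replicate libraries differed beyond sampling noise (chi-square per gene 3.69 to 55.8), so no pair was treated as 1 library.

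The 7 genes and all lists were chosen with earlier results of these data known. Named genes are the 7 factors, up to 4 called genes per list and knockdown by size of change at a mean of at least 1 CPM, tested genes within 100 kb and the 3 most similar profiles. HOXB3, HOXB9, PRAC1 and PRAC2 belong to the cluster of HOXB13, and KLF15, PROM2 and ESRP1 were named after their values were seen. Alternatives were DESeq2 1.42.0, other filters and normalizations, fewer libraries, single siRNAs, a replicate block and each library left out. Some genes that the naming rule covers are not reported here. ATAC-seq and other data of the study were not analysed here.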

Additional observations from a re-analysis of the deposited data

Results flagged for a closer look

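In 14 groups of 4 knockdown libraries (7 factors, both knockdowns), 1 library stood apart by Dixon's criterion. GATA2 was 746.3 CPM in SMARCA4 siRNA A library 2, against 560.7 to 591.3 CPM in the other 3 SMARCA4 knockdown libraries, a gap of 0.83 of the whole range. Chance flags about 1 in 20 such groups. The same library had the lowest summed level of interferon-induced genes among the knockdown libraries, at 13302 CPM.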

How the results depend on the processing

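Outside the fits that left out 1 library, 203 values of the factors kept their direction and their side of the threshold, 12 lost the call, 3 gained it and 3 changed sign. NR3C1 in both knockdowns, FOXP1 in SMARCA4 knockdown, GATA3 in SMARCA1 knockdown, and FOXA1 and GATA3 between the knockdowns were called in every alternative that gave a value, and GATA3 gave none under a filter of 5 CPM. With only the libraries of the groups compared, HOXB13 and GRHL2 between the knockdowns were 0.26 and 0.26 and no longer called. The same values were 0.24 and 0.27 with SMARCA4 siRNA A alone and 0.28 and 0.24 with siRNA B alone, where GATA2 was 0.19. With SMARCA1 siRNA A alone, HOXB13 and GATA2 against control were -0.16 and -0.27 and between the knockdowns 0.02 and 0.25, none called, and with siRNA C alone GRHL2 between the knockdowns was 0.13. NR3C1 between the knockdowns became called without a count filter (0.35), with SMARCA4 siRNA B alone (0.51) and with SMARCA1 siRNA A alone (0.64). Values near 0 changed sign for GATA2 with SMARCA4 siRNA A alone (0.10) and for FOXA1 in SMARCA1 knockdown with siRNA C alone (0.04) and DESeq2 (0.00). Factors called fell to 3 in SMARCA1 knockdown with siRNA A alone and to 3 between the knockdowns with the compared libraries only, siRNA A alone or siRNA B alone. The single-siRNA values came from the same fit of the 10 libraries. Causes of these changes were not tested.

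With 1 library left out, SMARCA4 against control ranged from 0.41 to 0.51 for FOXA1, -0.08 to 0.10 for GATA2 and 0.40 to 0.43 for GRHL2. SMARCA1 against control ranged from -0.05 to 0.07 for FOXA1, -0.46 to -0.32 for HOXB13, -0.36 to -0.28 for GATA2, 0.07 to 0.20 for GRHL2 and 0.32 to 0.51 for FOXP1. Between the knockdowns the ranges were 0.20 to 0.34 for HOXB13, 0.23 to 0.41 for GATA2, 0.19 to 0.35 for GRHL2 and 0.19 to 0.47 for NR3C1. HOXB13 and GRHL2 were each called in 2 of these 8 fits, GATA2 in 5 and NR3C1 in 2. A lone library left in a group was assumed to vary like the other groups. The number of factors called ranged from 2 to 4 for SMARCA4, 2 to 6 for SMARCA1 and 2 to 5 between the knockdowns.

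The replicate numbers did not pair the libraries: deviations of same-numbered libraries correlated over 0.1 in 3 of 10 pairs of groups (range -0.10 to 0.36). With the replicate number as a block, 4, 5 and 5 factors were called, and no call changed.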
